A study of Gossypium hirsutum with 3 samples.

Results

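The genes described here are 22 redox genes of upland cotton, mostly cytochrome P450 enzymes, peroxidases and small thiol-dependent reductases, out of 11143 genes on a cotton oligonucleotide array. They were selected on their descriptions in a table that the study drew up from its own arrays. A gene belonged if its description named a peroxidase, thioredoxin, glutathione, ascorbate, cytochrome P450, oxidoreductase or thiol reductase, and did not name a sterol, NADH, a flavonoid, a flavanone or a transporter. The words glutaredoxin, superoxide and catalase were also searched and found no gene. Because that table held genes that differed between young fiber and ovules, or between young and older fiber, the members were in part chosen by the same ratios that are reported below. Those ratios are therefore a description of the genes and not a test of the group. All 22 genes were among the 11081 that passed a filter on dim probes.

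Fiber initials and whole ovules of field grown cotton were compared at 1 dpa (day post anthesis, the day after the flower opened) on 3 arrays, each hybridized with a Cy3 (green) and a Cy5 (red) labeled cDNA. By the study's methods the field plants were DES119 and ST4793R, but the methods do not say which of them gave the RNA of each array. By the same methods, glass beads were vortexed with frozen ovules to break off the initials. The RNA was polyribosomal by the methods, although the sample labels speak of total RNA. The whole ovules still carried their initials beside all other ovule cells, so that a difference between the RNAs is one between an enriched fraction and a mixture, in which fewer cells of a type and less RNA per cell cannot be told apart. The study's methods describe biological replicates from different days, but 1 RNA code, SP2A, stood on arrays 1 and 2, so that separate harvests are not certain for all arrays. Here n = 3 counts arrays, whose spread may be in part technical.

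Plants use cytochrome P450 enzymes, which insert oxygen into small hydrophobic molecules, to make hormones, phenolics, cutin and defense compounds. Secreted peroxidases work in the cell wall, where they spend hydrogen peroxide to join phenolic groups or take part in loosening, and ascorbate peroxidase removes hydrogen peroxide inside the cell. Thioredoxins and other thiol reductases reduce disulfide bonds, and glutathione S-transferases attach glutathione to reactive compounds. Hydrogen peroxide and wall peroxidases have long been studied in cotton fiber growth.

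Each spot names the 2 RNAs on it by a code, and the codes do not match the labels. By the codes, an RNA of the SP2 kind was green on arrays 1 and 3 and red on array 2, always opposite an RNA of the SP1 kind. By the labels, fiber was green on arrays 1 and 2 and red on array 3. The label of array 1 therefore makes SP2 the fiber RNA, and the labels of arrays 2 and 3 make SP1 the fiber RNA. Across all genes, the red over green ratios of array 2 had a correlation of -0.58 with those of array 1 and of -0.81 with those of array 3, while those of arrays 1 and 3 had 0.522. Turned by the codes, all these correlations were positive. The ratios given from here on set the SP2 RNA over the SP1 RNA. The codes and labels do not settle which of them was the fiber RNA. If it was SP1, each direction turns while the sizes stay.

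Markers were read on the same arrays. Of 5 genes known from fiber initials, 2 were called higher in the SP2 RNA, GhFDH with a log2 ratio of 1.17 and MYB109 with 1.29, while MYB2 had 0.60, GhACY 0.96 and GhRDL 0.37 without a call. All 5 means were thus on the side of the RNA that the label of array 1 calls fiber. GhACY had -0.73 on array 1 against 1.84 and 1.78 on arrays 2 and 3, and a mean of 1.81 without array 1, a setting chosen after seeing the data. GhRDL had saturated probes in both RNAs, as the histone genes Contig15160 and Contig4454 had in the SP1 RNA, so that their ratios and the sums that hold them are uncertain in size. The summed signals of the fiber genes were 31600 to 37000 in the SP2 RNA and 15900 to 23800 in the SP1 RNA. All 7 histone and topoisomerase genes of the study's table, which mark dividing cells, were called lower in the SP2 RNA, against 8.31% of all genes. Their summed signals were 19800 to 29800 in the SP2 RNA and 85400 to 136000 in the SP1 RNA. That table was drawn up partly on this contrast, so these genes were in part chosen by it. Such genes outside the table were not searched. All probes of both lists were above background in both RNAs on each array. Both lists differed in these directions on each of the 3 arrays by their summed signals, and their part in the values of the redox genes was not tested. Above background were 93.6% to 95.3% of the gene spots in green and 86.5% to 94.6% in red. The SD of the green negative controls was 102 on array 1, against 5.85 on array 2 and 5.32 on array 3.

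A gene was called higher or lower when the adjusted p of a limma fit across all genes was under 0.05. Of the 22 redox genes, 14 were called, against 12.3% of all genes tested. In the SP2 RNA 6 were higher, against 3.95% of all genes, and 8 were lower, against 8.31%. Since the members were taken from a table drawn up partly on this contrast, nothing is read from these shares. Centring each array on its median in place of loess left 1 redox gene higher, Contig15122, and 7 lower (80 and 249 of all genes), the deposited ratios left the same gene higher and 6 lower (90 and 156 of all genes), and neither the ordinary error of each gene nor the orientation of the labels called any. The other 1016 genes of that table gave 603 calls. The median log2 ratio of the redox genes was -0.17, beside 0.04 over all genes and 0.20 over those 1016 genes. The median size regardless of sign was 0.90, beside 0.17 over all genes and 0.90 over the 1016. The ratio had 1 sign on all arrays in 19 of the 22 redox genes (9 positive and 10 negative), or 86.4%. That was the case for 44.0% of all genes and for 80.8% of the 1016 genes drawn from the same table. The study's methods set a threshold of 2 fold and a p of 0.05 without adjustment, past which 2 redox genes were higher and 7 lower. The nearest genes inside and outside that fold were a thiol reductase singleton at 1.26 and the P450 gene Contig17218 at 0.99 on the higher side, and TMIRS_040_A04.F at -1.32 and Contig2492 at -0.65 on the lower side.

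**Figure D1:**
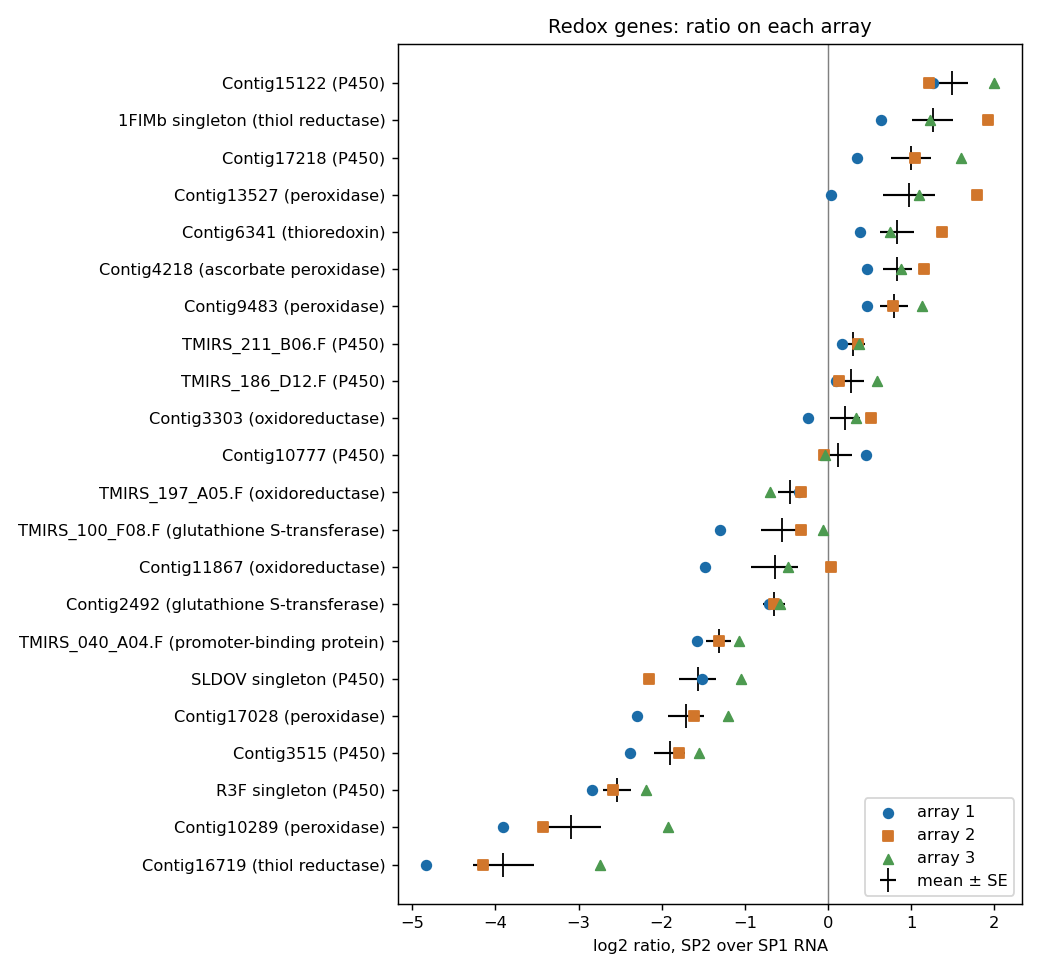
Log2 ratio of SP2 over SP1 RNA of each of the 22 redox genes on arrays 1, 2 and 3 (points), with the mean and its SE (cross). The thiol reductase Contig16719 stands at -3.91 at the bottom and the P450 gene Contig15122 at 1.49 at the top, and 8 of the 8 genes called lower have their highest point on array 3.

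Cytochrome P450 genes made up 8 of the 22 members and went both ways, with 2 called higher, 3 called lower and a median ratio of 0.20. The gene with the highest ratio among all members was Contig15122, matched to a P450 of pepper. Its log2 ratios of SP2 over SP1 RNA were 1.27, 1.22 and 2.00 on arrays 1, 2 and 3, with a mean of 1.49 ± 0.19 (SE, n = 3), a 2.81-fold difference that ranked 27 from the top of all genes. Its normalized signals, in fluorescence units, were 2822, 2431 and 2575 in the SP2 RNA and 1173, 1047 and 645 in the SP1 RNA. The SP2 signal was thus the higher one on each array. Signals were not put on 1 scale between arrays, so only the RNAs of the same array are set against each other. The ratio was largest on array 3, an array that was dimmer in general, and the part of this in the ratio was not tested. Its 4 probes lay close together, with means of 1.39 to 1.59.

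The second P450 gene called higher was Contig17218, matched to an Arabidopsis gene. Its ratios were 0.35, 1.04 and 1.60, with a mean of 0.99 ± 0.24 (SE, n = 3). Its signals were 678, 853 and 804 in the SP2 RNA and 533, 415 and 266 in the SP1 RNA, with a small difference on array 1. It was not called without array 3 (0.69), nor with median centring, the deposited ratios, no filter on dim probes or the median over probes. On array 1 its probes disagreed, with -0.27, 0.03, 0.25 and 1.39, whereas all 4 lay between 0.81 and 1.82 on arrays 2 and 3.

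The P450 gene lowest in the SP2 RNA was the singleton (a single unassembled cDNA read) R3F_26R_C08_InvR_14Sep04_060.ab1, matched to CYP71D11 of the legume Lotus japonicus, a member of the large plant CYP71 family. Its ratios were -2.84, -2.58 and -2.18, with a mean of -2.54 ± 0.17 (SE, n = 3), a 5.80-fold difference that ranked 29 from the bottom of all genes. Its signals were 169, 107 and 75.6 in the SP2 RNA, against 1212, 642 and 344 in the SP1 RNA. The dim SP2 signals included an offset of 50 added before the log was taken, and with no offset the ratio was -3.31. The gene had 1 probe in 3 spots, which on array 1 gave -2.87, -2.84 and -2.82.

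Contig3515, matched to another Arabidopsis P450, had ratios of -2.38, -1.79 and -1.55, with a mean of -1.91 ± 0.19 (SE, n = 3). Its signals were 765, 665 and 407 in the SP2 RNA and 3977, 2294 and 1194 in the SP1 RNA. The third P450 gene called lower, the singleton SLDOV_01-01-05R_G08_InvR_27Jan04_052.ab1, matched to a rice P450, had ratios of -1.52, -2.15 and -1.04 and a mean of -1.57 ± 0.22. Its signals were 350, 165 and 152 in the SP2 RNA and 1004, 729 and 312 in the SP1 RNA, the SP2 signal being the lower one on each array. All 3 P450 genes called lower rested on 1 probe each, the only members that did, while the other 5 P450 genes had 3 or 4 probes.

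The remaining 3 P450 genes were not called. TMIRS_211_B06.F, matched to an Arabidopsis gene, had ratios of 0.17, 0.37 and 0.37 and a mean of 0.30 ± 0.14 (SE, n = 3). TMIRS_186_D12.F, whose match to a rice gene was weak, had 0.10, 0.13 and 0.59 and a mean of 0.27 ± 0.16. Both were positive on all arrays without passing the threshold. Contig10777, matched to an Arabidopsis P450-like protein, had 0.46, -0.04 and -0.04, and its mean of 0.13 ± 0.16 became -0.04 without array 1.

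**Figure D2:**
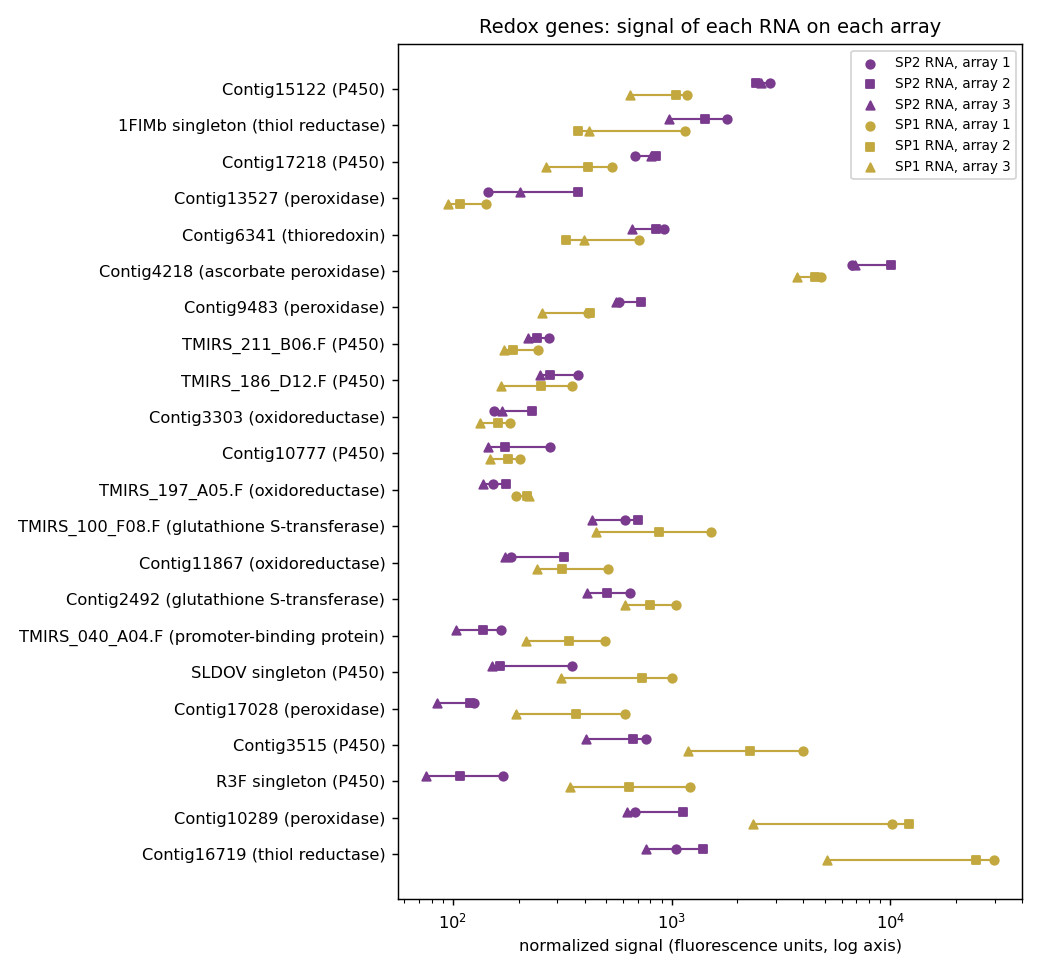
Normalized signal of each redox gene on a log axis, in fluorescence units, with the SP2 RNA in purple above and the SP1 RNA in yellow below for each gene and a symbol for each array. The 2 sets of points are farthest apart for Contig16719 (767 to 1394 in the SP2 RNA, 5117 to 29790 in the SP1 RNA) and Contig10289, and signals were not put on 1 scale between arrays.

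Peroxidases other than ascorbate peroxidase, whose descriptions give no location in or outside the cell, also went both ways. Of 4 genes, 1 was called higher and 2 lower. Contig10289, matched to a peroxidase already known from upland cotton, had ratios of -3.91, -3.43 and -1.92, with a mean of -3.08 ± 0.36 (SE, n = 3). This 8.48-fold difference ranked 8 from the bottom of all genes. Its signals were 682, 1130 and 625 in the SP2 RNA, against 10210, 12160 and 2364 in the SP1 RNA, and each of its 4 probes was negative on each array. The ratio was nearest 0 on array 3, and without that array the mean was -3.67. Array 3 was dimmer in general, and the part of this in the ratio was not tested. The median red signal of array 3, from the SP1 RNA there, was 131, against median red signals of 311 and 270 on arrays 1 and 2.

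Contig17028, matched to a rice peroxidase, had ratios of -2.30, -1.61 and -1.21, with a mean of -1.71 ± 0.22 (SE, n = 3). Its SP2 signals of 125, 120 and 84.4 stood little above the added offset, against 612, 368 and 195 in the SP1 RNA. With no offset the ratio was -2.44. The SP2 signal was the lower one on each array, and 4 of 4 probes were negative, with means of -1.97 to -1.14.

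Contig9483, matched to the Arabidopsis peroxidase ATP26a, was the peroxidase called higher. Its ratios were 0.47, 0.78 and 1.13, with a mean of 0.79 ± 0.17 (SE, n = 3). Its signals were 575, 728 and 557 in the SP2 RNA and 416, 424 and 254 in the SP1 RNA. The call was lost without array 2 (0.80) and without array 3 (0.62). It was also lost with median centring, the deposited ratios and the median over probes. Of the 4 probes of this gene, 1, with a mean of 0.23, was negative on array 2.

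The fourth peroxidase, Contig13527, matched to ATP20a of Arabidopsis, had ratios of 0.03, 1.79 and 1.09 and a mean of 0.97 ± 0.31 (SE, n = 3), which was not called. Its signals were 145, 374 and 202 in the SP2 RNA, against 142, 108 and 94.9 in the SP1 RNA, nearly equal on array 1. All 3 probes showed the same order, with 0.01 to 0.05 on array 1 and 1.55 to 2.02 on array 2. It was called higher without array 1 (1.44), without array 3 (0.91) and with no offset (1.58), so that its place depended on the array and on the background correction.

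Intracellular enzymes of hydrogen peroxide and thiol balance formed the next group. Contig4218, matched to the ascorbate peroxidase of the chloroplast stroma of pumpkin, was called higher with ratios of 0.46, 1.15 and 0.88 and a mean of 0.83 ± 0.17 (SE, n = 3). Its signals were 6658, 10090 and 6883 in the SP2 RNA and 4827, 4540 and 3744 in the SP1 RNA. It was not called without array 2 (0.67). A thioredoxin gene, Contig6341, matched to a tobacco protein, had nearly the same mean, 0.83 ± 0.21, from ratios of 0.39, 1.37 and 0.74. Its signals were 928, 853 and 661 in the SP2 RNA and 709, 330 and 396 in the SP1 RNA, the SP2 signal being the higher one on each array. It too was not called without array 2 (0.56), nor with median centring, the deposited ratios, no filter on dim probes or the median over probes. All probes of both genes had positive means, between 0.52 and 1.18.

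Of the 2 glutathione S-transferase genes, Contig2492, matched to GST6 of Arabidopsis, was called lower. Its ratios of -0.70, -0.65 and -0.58 had a mean of -0.65 ± 0.13 (SE, n = 3) and an SD of 0.061, beside a median SD of 0.431 over the redox genes. Its signals were 642, 504 and 409 in the SP2 RNA and 1047, 793 and 613 in the SP1 RNA, the SP2 signal being the lower one each time. The arrays were closer together than the probes, whose means were -0.24, -0.26, -0.78 and -1.32. The 2 probes nearest 0 stayed between -0.33 and -0.13 on all arrays. With fewer arrays in the fit it was not called without array 2 (-0.64) or without array 3 (-0.68). TMIRS_100_F08.F, whose match to a glutathione S-transferase was very weak, had ratios of -1.30, -0.32 and -0.06 and a mean of -0.56 ± 0.25, not called. It was called lower without array 3 (-0.81).

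The 2 thiol reductase genes, relatives of a lysosomal enzyme that in mammals is induced by interferon gamma and opens disulfide bonds of proteins, stood at opposite ends of the list. Contig16719 had ratios of -4.83, -4.15 and -2.74, with a mean of -3.91 ± 0.37 (SE, n = 3), a 15.0-fold difference and the lowest ratio among all 11081 genes. Its signals were 1048, 1394 and 767 in the SP2 RNA, against 29790, 24740 and 5117 in the SP1 RNA. Its 4 probes had means of -4.06 to -3.58, each negative on each array. A probe was saturated in the SP1 RNA on 1 array, and with saturated spots left out the ratio was -3.97. Without array 3, the dimmest array, it was -4.49, and the part of the dimness in the ratio was not tested.

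The second thiol reductase, the singleton 1FIMb_01-01-15_F07_InvR_06Oct04_053.ab1, was called higher, with ratios of 0.63, 1.93 and 1.22 and a mean of 1.26 ± 0.25 (SE, n = 3). Its signals were 1797, 1424 and 973 in the SP2 RNA and 1157, 375 and 418 in the SP1 RNA. The SP2 signal was the higher one on each array. All 3 probes were positive on all arrays, with means of 1.17 to 1.32. The gene was not called with median centring or the deposited ratios.

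The 3 genes described only as oxidoreductases were not called. Contig3303, of the family of oxygenases that use iron and 2-oxoglutarate, had ratios of -0.24, 0.52 and 0.34 and a mean of 0.21 ± 0.18 (SE, n = 3), with probe means on both sides of 0. TMIRS_197_A05.F, matched to an NADP-dependent enzyme, had -0.35, -0.33 and -0.70 and a mean of -0.46 ± 0.15, and was called lower only with no offset (-0.71) among the alternatives tried. Contig11867, a putative quinone oxidoreductase, had -1.48, 0.04 and -0.48 and a mean of -0.64 ± 0.28. Its probes fell into pairs, with means of -0.06 and -0.27 against -1.10 and -1.14, and it was called lower without array 2 (-0.98).

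TMIRS_040_A04.F is not an enzyme. It was taken in by its description as AOBP, a protein that in pumpkin binds the promoter of an ascorbate oxidase gene. It was called lower, with ratios of -1.58, -1.31 and -1.07 and a mean of -1.32 ± 0.15 (SE, n = 3). Its signals were 166, 137 and 103 in the SP2 RNA, against 494, 339 and 216 in the SP1 RNA. These dim SP2 signals included the added offset, and without it the ratio was -1.82. The size differed between its 4 probes, whose means were -0.86, -0.61, -1.60 and -2.19. The probe with the smallest mean was above background in the SP2 RNA on 1 of the 3 arrays. The gene was not called with the deposited ratios.

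**Figure D3:**
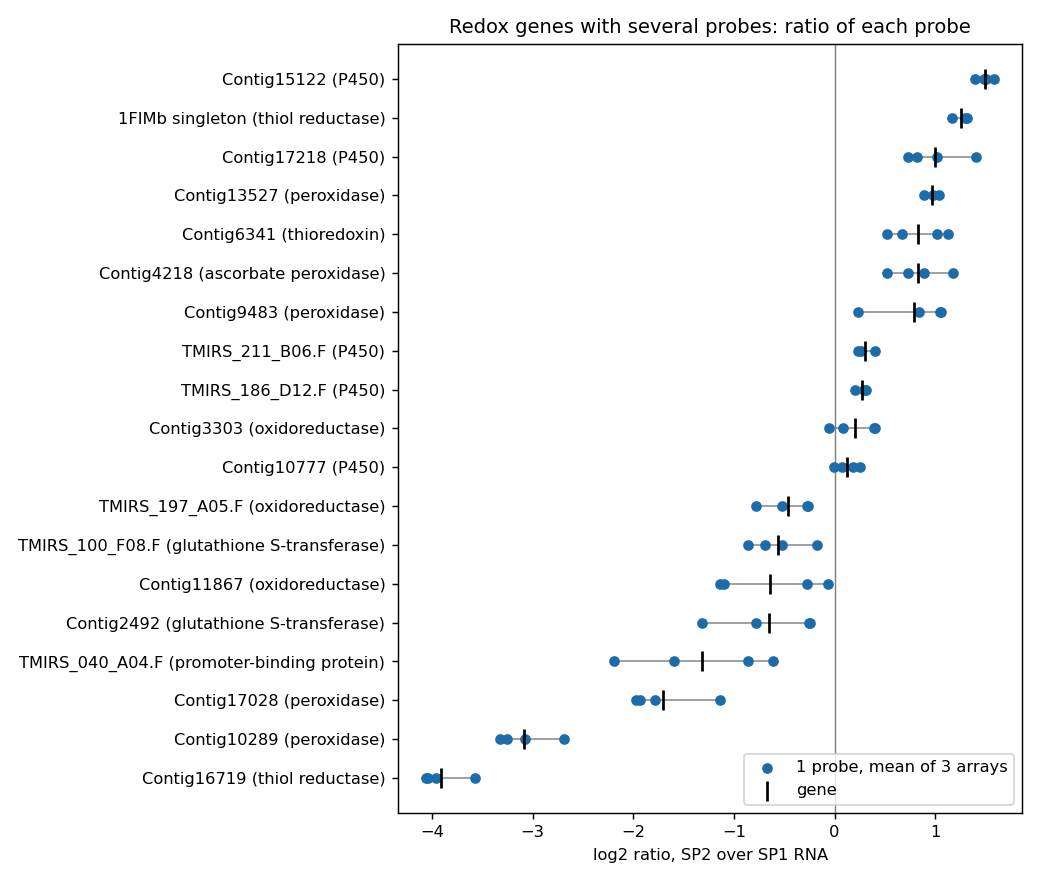
Mean log2 ratio over 3 arrays of each probe of the 19 redox genes with more than 1 probe (points), with the mean of the gene (bar). Probes of Contig15122 span 0.19, whereas those of TMIRS_040_A04.F span 1.58 without crossing 0, and the probes of Contig3303 and Contig10777 lie on both sides of 0.

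Probes of 1 gene share a target and an array and are not replicates, but they showed how far the sign of a gene rested on a single sequence. Of the 19 genes with more than 1 probe, 17 had all probe means on 1 side of 0. Of their 73 probes, 52 had 1 sign on all arrays, and of the 43 probes of genes that were called, 40 did. The 3 exceptions were 1 probe each of Contig17218, Contig4218 and Contig9483, all genes called higher. A call rests on ratios that agree over these same arrays, so the count among called genes was in part fixed by the call. Such probe counts were not made over all genes, so nothing is read from them about the redox genes.

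Arrays differed in the size of the ratios. Array 1 gave the lowest ratio in 18 of the 22 redox genes, beside 42.7% of all genes. It gave the lowest in 5 of the 6 redox genes called higher, beside 67.4% of all genes called higher. Of the 8 redox genes called lower it gave the lowest in 7, beside 65% of all genes called lower. Most genes called higher thus stood nearest to 0 on array 1 and most genes called lower farthest from it. Array 3 gave the highest ratio in all 8 redox genes called lower, beside 67.8% of all genes called lower. Arrays 1 and 2 had the same sign in 19 of the 22 genes, arrays 1 and 3 in 20, and arrays 2 and 3 in 21. The genes whose sign was mixed were Contig3303, Contig10777 and Contig11867.

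**Figure D4:**
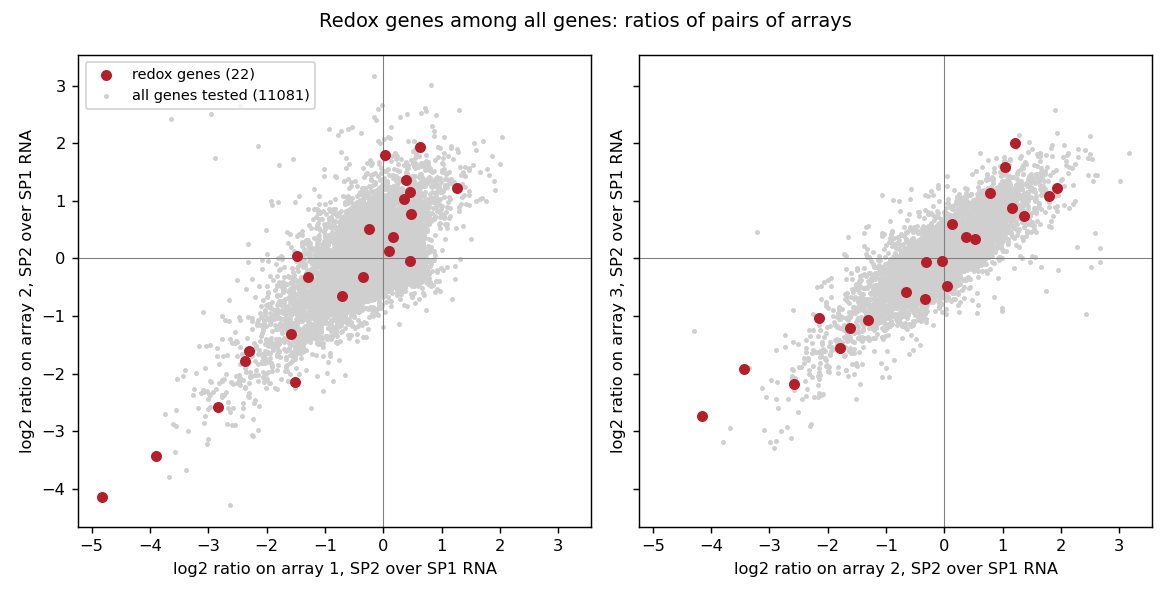
Log2 ratios of SP2 over SP1 RNA of all 11081 genes (grey) and of the 22 redox genes (red), on array 2 against array 1 (left) and on array 3 against array 2 (right). The redox genes lie along the same diagonal as the other genes, with Contig16719 near its lower end at -4.83 on array 1 and -4.15 on array 2, and redox genes between 0 and 1 on array 1 reach up to 1.93 on array 2.

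Other genes of the same table that carry out oxidation or reduction, by words such as oxidase, reductase, dehydrogenase or oxygenase in the description, numbered 43. In the SP2 RNA 15 of them were called higher and 7 lower, with a median ratio of 0.59, where the redox genes had 6 higher, 8 lower and -0.17. They were drawn from the table in the same way, and the difference was not tested. Among those higher with the smallest p were 2 genes of mitochondrial respiration and 1 aldehyde dehydrogenase. A cytochrome c oxidase subunit, Contig16115, had 1.21 ± 0.13 (SE, n = 3), the NAD-dependent isocitrate dehydrogenase Contig311 had 1.33 ± 0.17, and the aldehyde dehydrogenase Contig2685 had 1.22 ± 0.16. Among those lower was the singleton SLDOV_01-01-01R_F11_InvR_27Jan04_085.ab1, matched to a 2-nitropropane dioxygenase, with -2.80 ± 0.20. The cinnamyl-alcohol dehydrogenase Contig5358, an enzyme class of lignin precursor synthesis, had -1.85 ± 0.14. Contig9549, with -1.77 ± 0.18, was matched to NADH dehydrogenase subunit 5 of a fish, Opisthoproctus soleatus, so that its identity in cotton is uncertain. A further P450-like gene, Contig1998, whose description is spelled without the final letter of cytochrome and so was not a member, had ratios of 0.04, 1.00 and 0.73 and a mean of 0.59 ± 0.21, not called. It was singled out after its value was seen.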

How the data were processed

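The deposited scanner files hold spot and local background intensity in both dyes, as pixel means, quantified for the study with Agilent Feature Extraction. By the study's methods a company, MoGene, did the scanning and basic analyses. The files also hold a deposited flag that marks green signals well above background. The deposited table of the series holds the log2 of background-subtracted red over green, computed for the study without centring or turning. It was equal to ratios recomputed from the scanner files at 42034 of 42034 spots within 1e-08, and its medians were -0.01, 0.22 and -0.54 on arrays 1, 2 and 3. The version of Feature Extraction is not given in the sources used here, and arrays of 10 dpa fiber were not used here.

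On each array 2256 control spots out of 44290 were left out. Background was corrected by normexp in limma 3.58.1 (R 4.3.3) with an offset of 50, which shrinks ratios of dim genes, and ratios were normalized by loess within each array. Red was called above background at 2.6 robust SD over the negative controls. Of 40372 probes, 38713 were above background in either channel on at least 2 arrays. Spots at 65000 or more were counted as saturated. Probe values were means over spots and gene values means over probes, and the log2 ratios of the 3 arrays, turned by the RNA codes, were tested against 0 with lmFit and eBayes, with Benjamini-Hochberg adjustment over all genes. The SE is the moderated one of this fit. The fit was tested on simulated data. The variance model of the study also used the 10 dpa arrays and could not be fitted.

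All members of the rule are named, with up to 3 related oxidoreductases in each direction with the smallest p and the fiber markers. Descriptions came from the study's table, whose values were not used. The members and lists were chosen with earlier results of these data known. Alternatives changed the centring, the offset, the filter, the summary of probes, saturated spots, the orientation, the arrays used, the error and the threshold. The number of arrays limits the precision.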

Additional observations from a re-analysis of the deposited data

How the results depend on the processing

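Among all genes, the redox genes and the related oxidoreductases, 1359, 14 and 22 genes were called. Median centring in place of loess called 329, 8 and 7, and the deposited ratios, which put the median gene at 0.253, called 246, 7 and 7. Of the redox genes called, 1 was higher and 7 lower with median centring (all genes 80 and 249), and 1 was higher and 6 lower with the deposited ratios (all genes 90 and 156), where 6 were higher and 8 lower (all genes 438 and 921) in the fit reported. The median over probes called 9 redox genes, 2 higher and 7 lower (all genes 367 and 782), and no filter on dim probes called 12, 4 higher and 8 lower (all genes 401 and 860). The threshold in the study's methods called 716 genes and 9 redox genes (2 higher and 7 lower). The ordinary error without limma's moderation called 2, 0 and 0, with 1712, 10 and 20 at an unadjusted p under 0.05. Leaving out 1 array at a time gave 994 to 1999 genes, 11 to 15 redox genes and 16 to 28 related ones, and without array 1 the majority over all genes turned, to 1121 higher and 878 lower. Turned by the labels in place of the codes, limma called 0, 0 and 0, with 538, 1 and 0 at an unadjusted p under 0.05. In that orientation the ratio changed sign for all 14 redox genes called, to -0.65 for Contig15122, -0.84 for the 1FIMb singleton, -0.76 for Contig17218, -0.57 for Contig6341, -0.52 for Contig4218, -0.48 for Contig9483, 0.18 for Contig2492, 0.27 for TMIRS_040_A04.F, 0.56 for the SLDOV P450 singleton, 0.17 for Contig17028, 0.32 for Contig3515, 0.64 for the R3F singleton, 0.48 for Contig10289 and 0.69 for Contig16719. The labels turn arrays 2 and 3 against array 1, so that these means subtract arrays that the codes add. Under the other settings 197 of 198 ratios kept their sign, Contig10777 without array 1 being the exception. Of 11 alternatives that kept the codes, 7 redox genes, Contig15122 as the 1 higher and 6 lower, were called in 10, all but the ordinary error, and Contig17218, Contig6341, Contig9483 and Contig2492 in 4. The cause of the lower counts was not tested. Each ratio pairs the RNAs of 1 array, so that the fit reported is itself paired by array, and no further block could be added.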
